A study of Mus musculus with 26 samples.

Results

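The uninjured aortic lining of the mouse was compared with the vessel wall from which lining RNA had been rinsed, by RNA sequencing of 12 of the 26 libraries in the study. The 9 uninjured flush libraries came from the thoracic aorta of 9 C57BL6/J mice whose abdominal aorta had been wounded by mechanical pressure 48 h earlier. A flush is the RNA released when a guanidine lysis buffer (RLT) is pushed through the lumen, a way of sampling the endothelium without removing the other layers. The 3 vessel wall libraries came from the homogenised abdominal aorta that remained after the flush in 3 of the same mice (E1A, E2A and E3A), 48 h after wounding. All libraries were made with a NuGEN kit for very small RNA inputs, and the labels name no transgene or drug. The members were taken by column label alone and not by any measured value. The fractions differ in layer, but also in aortic segment, since the flush is thoracic and the wall abdominal, and in injury, since the wall is the wounded segment. Layer, segment and injury cannot be told apart in this contrast. The wounded abdominal flush taken at 48 h, a further group of 9 libraries from the same mice, is quoted in places because it shares segment and injury with the wall.

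The aorta has an endothelial sheet on the lumen, a media of smooth muscle cells between elastic lamellae, and an adventitia of fibroblasts, nerves, small vessels and fat. The endothelium senses flow, releases nitric oxide and holds clotting and leukocyte adhesion in check. Smooth muscle cells carry the contractile proteins and lay down much of the elastin and collagen of the wall.

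Expression is given as CPM, the counts of a gene scaled to library size with the trimmed mean of M values, and fold changes are flush over wall, so a positive log2 fold change is higher in the flush. Genes with an adjusted p under 0.05 in edgeR's quasi-likelihood test are called higher or lower. Of 13884 genes tested, 3550 (25.6%) were higher and 3408 (24.5%) lower in the uninjured flush than in the vessel wall, which together is 50.1% of the genes tested. Among these, 2708 (19.5% of the genes tested) were higher and 2513 (18.1%) lower by at least 2-fold. Every flush library stood above every wall library for 2240 genes (16.1%), and every wall library stood above every flush library for 3512 genes (25.3%). The median log2 fold change over all tested genes was -0.17. With scaling by total counts alone this median moved by 0.18, and 59.8% of the calls were then higher in the flush, against 51.0% with the scaling used here. The authors' deposited table of the same contrast called 3678 genes higher and 3994 lower, and it shared 95.2% of the higher and 92.5% of the lower calls made here, with 0 in the opposite direction. In turn, 91.9% of the higher and 78.9% of the lower calls in the authors' deposited table were made here. Each of the 3 experimental batches held 3 flushes and 1 wall, and 98.3% of the genes called higher and 99.9% of those called lower kept their sign in every batch. Those genes were called from these same libraries, so the shares are no independent support.

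The flush libraries were shallower than the wall libraries, with 1755773 to 5294304 counts, against 13853003 to 15560008 counts in the walls. They held 10449 to 12642 genes with a count, against 14807 to 14948 in the walls, and 2.32% to 6.19% of their counts lay in mitochondrial genes, against 10.7% to 11.3%. Replicates agreed less among flushes, with correlations of log2 CPM of 0.77 to 0.952, against 0.988 to 0.99 among walls. Genes of the olfactory and vomeronasal receptors, which serve smell and are not known to work in the aorta, took 0.118% to 0.599% of flush counts (median 0.313%), against 0.0035% to 0.0057% of wall counts. Of 1417 such genes in the count table, 491 passed the filter on low counts, which a gene can pass through the flushes alone. The filter thus favours genes that are high in the flush, and their calls are a description only. Among the 491, 450 were higher and 1 lower in the flush, with a median log2 fold change of 6.70. Their near-identical copies make single counts uncertain. The 95th percentile of all receptor genes with an exon length, tested or not, was 4.35 CPM per kb of exon in the flushes. It is used below as a mark of the receptor gene level. All of the 10 largest rises named below stand above it, so passing the mark does not set a gene apart from them. Of the 3536 higher genes with an exon length, 2200 (62.2%) stood above that mark in the flush and 1336 did not. Without the 2 flushes of the largest receptor gene share, those of mice E1A and E1B, left out after seeing the data, 3384 genes were higher and 3177 lower.

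**Figure D1:**
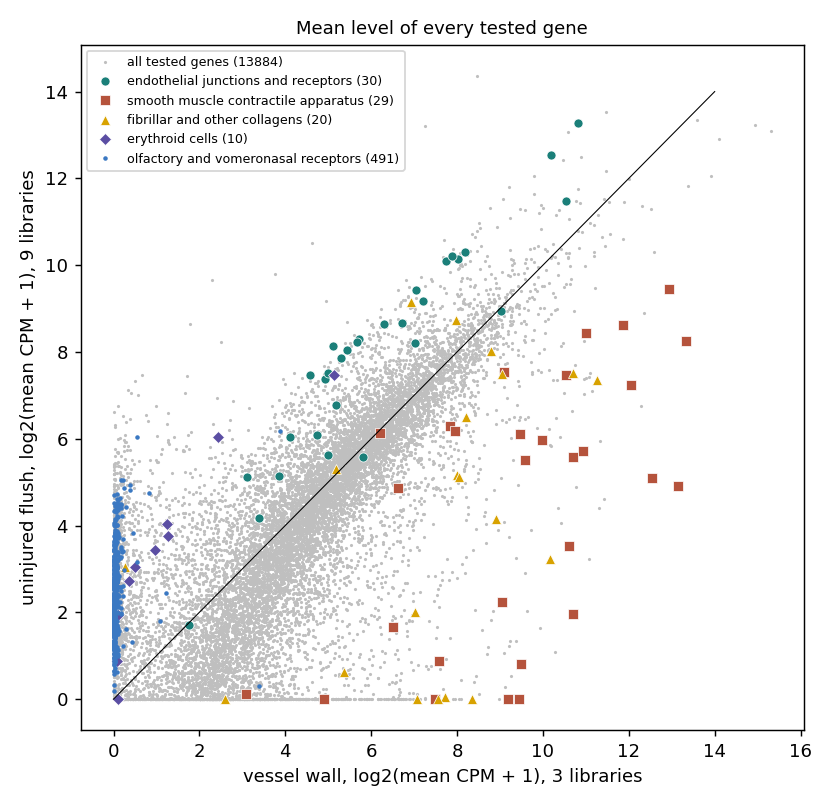
Mean level of each of the 13884 tested genes, as log2(mean CPM + 1), in 9 uninjured flushes (vertical axis) and 3 vessel walls (horizontal axis), with 5 gene groups coloured and the line of equal level drawn. Endothelial junction and receptor genes lie above the line or close to it, contractile genes and most collagens below it, and the receptor genes of smell lie along the left edge, where wall levels are near 0.

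Genes of endothelial junctions and surface receptors formed the clearest group that was higher in the flush. Of the 30 tested, 25 were higher and 0 lower, with a median log2 fold change of 2.15, and all 25 stood above the receptor gene mark. Their summed level ran from 26194 to 30798 CPM in the flushes and from 5857 to 7993 CPM in the walls. In a bulk sample, fewer cells of a type and less RNA per cell cannot be told apart.

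Cdh5, the cadherin of endothelial junctions, had 983, 1083 and 1233 CPM (lowest, median and highest) in the flushes and 256, 169 and 211 CPM in the walls of mice E1A, E2A and E3A. Pecam1, an adhesion molecule of the same junctions, had 4866, 5838 and 6925 CPM in the flushes and 1343, 802 and 1373 CPM in the walls. For both genes every flush stood above every wall, and the log2 fold changes were 2.37 ± 0.17 and 2.34 ± 0.17 (SE, adjusted p = 1.56e-11 and 4.28e-11). Egfl7, a secreted protein of endothelial cells that also hosts a microRNA, had 234, 273 and 382 CPM in the flushes and 34.2, 24.99 and 41.4 CPM in the walls. Ecscr, a transmembrane regulator of endothelial migration, had 156, 176 and 204 CPM in the flushes and 29.9, 16.9 and 22.0 CPM in the walls. These were the members of the list with the largest log2 fold changes, 3.07 ± 0.19 and 2.95 ± 0.18 (adjusted p = 9.04e-13 and 6.11e-13). Esam, a junctional immunoglobulin protein, and Sdpr, a protein of caveolae, were higher by 2.51 ± 0.16 and 2.11 ± 0.15 on the log2 scale. The wall level of the list was not nil: the median member's wall level was 22.6% of its flush level.

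The 5 members that did not pass were Kdr, Flt1, Cdh13, Robo4 and Tspan18. Kdr, the main VEGF receptor, had 3.38, 12.6 and 38.6 CPM in the flushes and 16.6, 4.85 and 6.77 CPM in the walls, and Flt1, a second VEGF receptor, had 1.36, 40.7 and 116 CPM in the flushes and 65.8, 41.6 and 58.3 CPM in the walls. The groups overlapped for both. Cdh13, a cadherin without a transmembrane part, averaged 490.1 ± 82.2 CPM in the flushes and 518 ± 52.7 CPM in the walls (SD, n = 9 and 3), a log2 fold change of -0.08 ± 0.19.

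Start-site sequences are printed for endothelial junction and receptor genes and for contractile genes. Of the 38 lists, theirs had the largest shares of members higher (83.3%) and lower (96.6%) in the flush. They are RefSeq promoters of GRCm38.p6, from 250 bases before to 50 after a start. Both strands were searched for CAGGAAG, a form of the ETS factor motif, and for the CArG box, the motif of serum response factor. CAGGAAG lay in 5 of the 16 endothelial list genes with a promoter (31.2%), against 14.8% of all 27025 genes with one. The CArG box lay in 4 of the 26 contractile list genes with a promoter (15.4%), against 1.81% of all genes with one. The motifs do not overlap, and a match is only a description of these letters. In the sequences below, capitals mark the motif. Egfl7 has other promoters with 1 or 0 matches, and the one with the most is printed. Egfl7 (chr2:26580833-26581132, plus strand) has 2 matches to CAGGAAG, beginning 90 and 49 bases before the start, and Emcn (chr3:137340828-137341127, plus strand) has 1, beginning 174 bases before it. Myl9 (chr2:156775214-156775513, plus strand) has a CArG box beginning 161 bases before the start, and Ldb3 (chr14:34588632-34588931, minus strand) has one beginning 35 bases before it.
Egfl7: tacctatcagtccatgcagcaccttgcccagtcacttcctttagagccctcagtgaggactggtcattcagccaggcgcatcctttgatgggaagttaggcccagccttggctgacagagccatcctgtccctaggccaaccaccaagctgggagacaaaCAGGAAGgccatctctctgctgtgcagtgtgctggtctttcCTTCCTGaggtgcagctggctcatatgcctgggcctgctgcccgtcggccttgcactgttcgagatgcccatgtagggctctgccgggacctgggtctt
Emcn: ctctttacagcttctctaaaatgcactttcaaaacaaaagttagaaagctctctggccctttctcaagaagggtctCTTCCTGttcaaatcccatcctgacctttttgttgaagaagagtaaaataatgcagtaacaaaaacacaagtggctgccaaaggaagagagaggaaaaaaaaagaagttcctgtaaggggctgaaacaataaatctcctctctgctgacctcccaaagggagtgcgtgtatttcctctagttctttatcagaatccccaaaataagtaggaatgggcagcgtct
Myl9: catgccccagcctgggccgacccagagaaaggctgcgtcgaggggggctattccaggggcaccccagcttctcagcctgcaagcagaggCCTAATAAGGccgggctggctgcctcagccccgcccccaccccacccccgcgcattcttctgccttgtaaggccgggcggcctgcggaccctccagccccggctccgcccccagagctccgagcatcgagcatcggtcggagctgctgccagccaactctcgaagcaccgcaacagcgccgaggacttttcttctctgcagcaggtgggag
Ldb3: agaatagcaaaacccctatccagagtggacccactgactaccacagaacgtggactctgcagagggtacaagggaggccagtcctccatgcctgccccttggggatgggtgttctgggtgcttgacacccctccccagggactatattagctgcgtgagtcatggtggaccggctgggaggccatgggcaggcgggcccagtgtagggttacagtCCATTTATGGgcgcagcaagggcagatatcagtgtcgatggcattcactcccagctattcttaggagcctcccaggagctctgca

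Emcn, a mucin of the endothelial surface, had 132, 242 and 432 CPM in the flushes and 48.5, 36.0 and 41.8 CPM in the walls, with no overlap and a log2 fold change of 2.63 ± 0.37 (adjusted p = 2.3e-06). Myl9, the regulatory myosin light chain, had 0, 7.04 and 28.8 CPM in the flushes and 1473, 1623 and 1577 CPM in the walls. Ldb3, a Z-disc protein of muscle, had no count in any flush and 208, 162 and 160.4 CPM in the walls, at least 1571-fold lower in the flush. That bound, like others given here for genes at 0, uses a floor of 3 counts over the whole flush group and covers counting error only.

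Among 27 endothelial transcription factors tested, 18 were higher and 5 lower in the flush, with a median log2 fold change of 1.71. Gata2, a zinc finger factor of endothelial and blood cells, had 178, 243 and 265 CPM in the flushes and 43.9, 24.8 and 46.2 CPM in the walls. The SoxF factors, which act in arterial specification, moved alike. Sox17 was higher by 2.69 ± 0.21, Sox7 by 2.41 ± 0.20 and Sox18 by 2.64 ± 0.29 on the log2 scale, and for each gene no flush overlapped the walls. Fli1, an ETS factor, had 207, 237 and 324 CPM in the flushes and 62.1, 42.2 and 52.5 CPM in the walls. Erg, another ETS factor, differed less, with 585, 796 and 991 CPM in the flushes and 523, 509 and 412 CPM in the walls, a log2 fold change of 0.68 ± 0.17 (adjusted p = 0.00178, and 0.056 in a fit of the 3 mice that gave both fractions, with mouse as a block). The flow-induced factors Klf2 and Klf4 were also higher. Klf2 had 140.0, 457 and 608 CPM in the flushes and 81.1, 25.9 and 20.7 CPM in the walls, and Klf4 had 73.1, 202 and 409 CPM in the flushes and 111, 46.2 and 43.1 CPM in the walls. Klf2 did not overlap between groups and Klf4 did.

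The lower members were Nr2f2, Meox2, Heyl, Mef2c and Ets2, and the call of Ets2 was lost with the 3 mice as a block (adjusted p = 0.14). Nr2f2, the factor of venous identity, had no count in any flush and 94.8, 108 and 127 CPM in the walls, at least 986-fold lower in the flush. Heyl, a Notch target of smooth muscle, had 0, 8.13 and 32.5 CPM in the flushes and 639, 954 and 941 CPM in the walls. Mef2c, which acts in both endothelium and muscle, had 74.9, 102 and 131 CPM in the flushes and 549, 469.6 and 424 CPM in the walls (log2 fold change -2.26 ± 0.15, adjusted p = 3.83e-12).

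**Figure D2:**
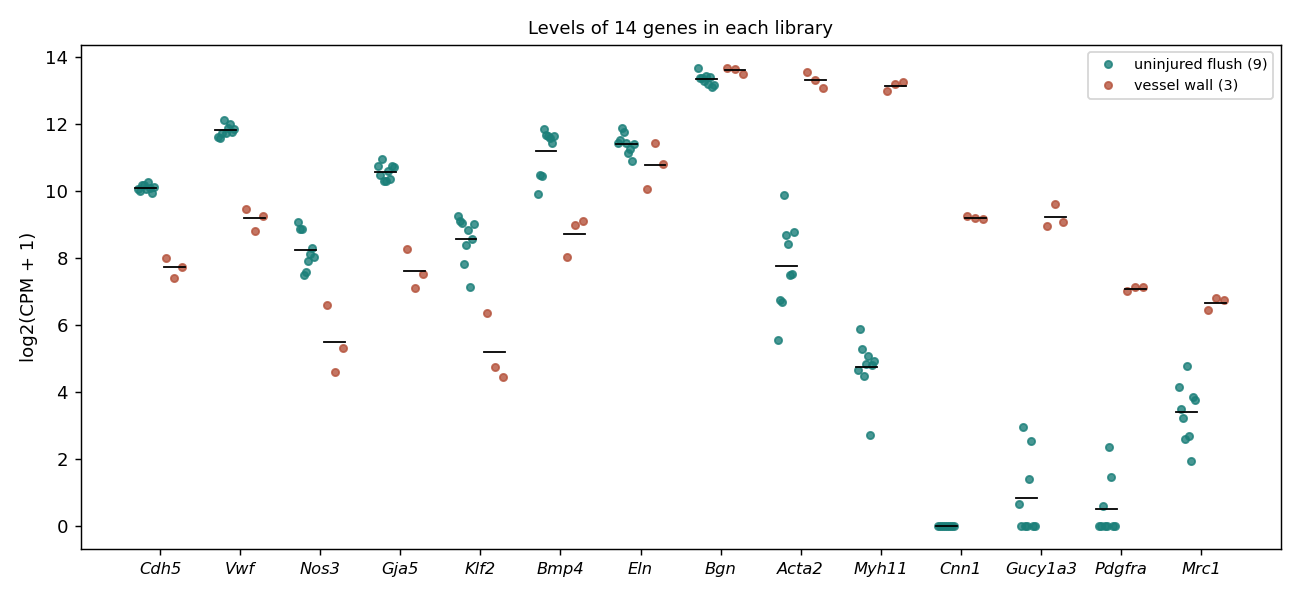
Level of 14 genes as log2(CPM + 1) in each of 9 uninjured flushes (left of each pair, teal) and 3 vessel walls (right, red), with the group mean as a bar. Endothelial genes on the left stand higher in the flush, Eln and Bgn lie close in both, and contractile, fibroblast and macrophage genes on the right stand higher in the wall, with Cnn1 at 0 in all 9 flushes.

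Genes that make or respond to vasoactive signals in the endothelium were mostly higher in the flush. Of 20 tested, 15 were higher and 4 lower, with a median log2 fold change of 2.10, and 14 and 2 with the 3 mice that gave both fractions as a block. Nos3, the endothelial nitric oxide synthase, had 179, 277 and 531 CPM in the flushes and 95.3, 23.3 and 38.7 CPM in the walls (log2 fold change 2.63 ± 0.38, adjusted p = 3.58e-06). The connexins of arterial endothelium, Gja5 and Gja4, were higher by 2.89 ± 0.24 and 2.43 ± 0.24 on the log2 scale. Gja5 had 1247, 1548 and 1983 CPM in the flushes and 306, 135 and 181 CPM in the walls. Ace, the angiotensin converting enzyme, had 2554, 3252 and 3873 CPM in the flushes and 863, 817 and 967 CPM in the walls. Ece1, which matures endothelin, and Ptgs1, a cyclooxygenase, were higher by 2.26 ± 0.18 and 2.41 ± 0.24. For Nos3, Gja5, Ace, Ece1 and Ptgs1 no flush overlapped the walls. Gja1, a connexin found in smooth muscle and in disturbed endothelium, went the other way, with 0, 0 and 14.6 CPM in the flushes and 93.0, 67.3 and 92.7 CPM in the walls. Ptgis, the prostacyclin synthase, was also lower in the flush, with 123, 146 and 215 CPM there and 401, 297 and 311 CPM in the walls (log2 fold change -1.07 ± 0.16, adjusted p = 5.75e-06).

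Of 22 coagulation and fibrinolysis genes tested, 12 were higher and 3 lower in the flush, and 9 and 1 with the 3 mice as a block. Vwf, the adhesive protein that endothelial cells store for platelet capture, had 3045, 3476 and 4412 CPM in the flushes and 708, 449 and 602 CPM in the walls (log2 fold change 2.61 ± 0.18, adjusted p = 1.54e-11). The anticoagulant receptors Thbd, which binds thrombin, and Procr, which binds protein C, were higher by 1.43 ± 0.19 and 2.47 ± 0.43. F5, a clotting cofactor, had 52.8, 116 and 167 CPM in the flushes and 9.57, 7.24 and 6.99 CPM in the walls. F3, the tissue factor that starts clotting when blood leaves a vessel, had 0, 0 and 0.626 CPM in the flushes and 95.2, 111 and 168 CPM in the walls.

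Leukocyte adhesion genes gave 9 higher and 3 lower of 15 tested, and 8 and 1 with the 3 mice as a block. Vcam1, Icam1 and Icam2, the ligands of leukocyte integrins, were higher by 2.45 ± 0.27, 2.33 ± 0.19 and 2.56 ± 0.30 on the log2 scale. Vcam1 had 1609, 1943 and 2579.6 CPM in the flushes and 491, 294 and 309.8 CPM in the walls. F11r, a junctional adhesion molecule, had 227, 241 and 276 CPM in the flushes and 52.0, 35.4 and 45.2 CPM in the walls (adjusted p = 2.29e-14). Selp, the selectin that is stored with Vwf, had 474, 609 and 645 CPM in the flushes and 132, 84.5 and 99.4 CPM in the walls. No flush overlapped the walls for these 5 genes.

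The contractile apparatus of smooth muscle showed the opposite pattern. Of 29 genes tested, 28 were lower and 0 higher in the flush, with a median log2 fold change of -5.12, and for all 28 every wall stood above every flush. Their summed level ran from 2023 to 4812 CPM in the flushes and from 56251 to 60551 CPM in the walls.

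Acta2, smooth muscle actin, had 46.1, 182 and 935 CPM in the flushes and 11941, 10148 and 8602 CPM in the walls. Its highest flush, mouse E2A, stood apart from the other flushes and still lay below every wall. Myh11, the smooth muscle myosin heavy chain, had 5.51, 27.8 and 57.5 CPM in the flushes and 8085, 9283 and 9651 CPM in the walls, a log2 fold change of -8.29 ± 0.38 (adjusted p = 3.54e-15). Cnn1, a calponin that binds actin and defines differentiated smooth muscle, had no count in any flush and 601, 585 and 569.6 CPM in the walls, at least 5223-fold lower in the flush. Cald1, caldesmon, which steadies actin filaments, was the contractile gene with the smallest p, with 511, 709 and 862 CPM in the flushes and 6958, 8607 and 8021 CPM in the walls (log2 fold change -3.50 ± 0.13, adjusted p = 2.4e-17). Mylk, the kinase of the myosin light chain, had 30.7, 51.7 and 77.1 CPM in the flushes and 1957, 1962 and 1967 CPM in the walls. Synpo2 and Csrp1, proteins of actin bundles, were lower, with log2 fold changes of -4.84 ± 0.22 and -3.06 ± 0.15.

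The 10 largest falls among abundant genes included contractile and secreted proteins. They were Thsd4, Susd5, Mylk4, Mrvi1, Cnn1, Serpine2, Hspb7, Rcan2, Scube3 and Lmod1. Thsd4, a matrix protein that binds fibrillin, had no count in any flush and 722, 767 and 704 CPM in the walls, at least 6534-fold lower in the flush. Susd5, Mrvi1 (a target of nitric oxide signalling in smooth muscle), Serpine2 (a protease inhibitor) and Hspb7 (a small heat shock protein of muscle) also had no flush count, with bounds of 6169-fold, 5289-fold, 5219.6-fold and 4475-fold lower. Lmod1, a leiomodin that nucleates actin, had 0, 0 and 4.18 CPM in the flushes and 430.4, 762 and 951 CPM in the walls.

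Of 24 transcription factors of smooth muscle and mesenchyme tested, 18 were lower and 3 higher. Myocd, the coactivator that drives contractile genes with serum response factor, had 0, 0 and 3.94 CPM in the flushes and 386, 359 and 287 CPM in the walls. Mef2a and Zeb1 were expressed in both fractions and lower in the flush, with log2 fold changes of -1.08 ± 0.14 and -1.28 ± 0.07. The higher members were Mkl2, Meis2 and Twist1. Mkl2, a relative of Myocd, had 863, 1073 and 1208 CPM in the flushes and 289, 268 and 311 CPM in the walls. Twist1, a mesenchymal factor, had 62.4, 156 and 234 CPM in the flushes and 22.7, 41.1 and 39.4 CPM in the walls, and averaged 18.3 ± 11.2 CPM in the wounded abdominal flush (SD, n = 9).

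Receptors and channels that govern contraction gave 21 lower and 2 higher of 29 tested, with a median log2 fold change of -3.84. Gucy1a3 and Gucy1b3, the subunits of the nitric oxide receptor, stood opposite to Nos3. Gucy1a3 had 0, 0 and 6.78 CPM in the flushes and 495, 775 and 538 CPM in the walls, and Gucy1b3 had 2.87, 4.63 and 11.7 CPM in the flushes and 179, 230.3 and 192 CPM in the walls. Pde5a, which degrades the cyclic GMP made by that receptor, had 0, 2.26 and 11.8 CPM in the flushes and 323, 358 and 341 CPM in the walls. Rgs5, a regulator of G protein signalling in mural cells, was lower, with a log2 fold change of -6.91 ± 0.51, and Atp2a2, the calcium pump of the sarcoplasmic reticulum, one of -2.27 ± 0.11. The higher members were Htr2b, a serotonin receptor, and Ryr3, a calcium release channel. Ryr3 had 21.2, 80.0 and 113 CPM in the flushes and 2.43, 2.54 and 2.56 CPM in the walls and did not pass the receptor gene mark. Htr2b passed that mark, with 3.76, 11.3 and 23.3 CPM in the flushes and 0.893, 0.869 and 1.13 CPM in the walls, but lost its call with the 3 mice as a block (adjusted p = 0.11).

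Collagens were lower in the flush for 16 of 20 tested members and higher for 3, with a median log2 fold change of -3.54. Col1a1 and Col3a1, the chains of fibrillar collagen I and III, had 0, 0 and 51.4 CPM and 59.6, 217 and 238 CPM in the flushes. In the walls they had 1043, 1299.7 and 1117 CPM and 1553, 1998 and 1414 CPM. The collagen VI chain Col6a3 had no flush count and 187, 155 and 221 CPM in the walls, at least 1670.5-fold lower in the flush. The basement membrane chain Col4a2 was lower, with a log2 fold change of -1.55 ± 0.21, with 112, 170.4 and 274 CPM in the flushes and 491, 555 and 543 CPM in the walls. Col4a3, a collagen IV chain of specialised basement membranes, was higher by 2.22 ± 0.37, with 442, 564 and 678 CPM in the flushes and 144, 104 and 116 CPM in the walls. Col5a2, a regulator of fibril diameter, was higher by 0.75 ± 0.12. Col28a1, the remaining higher member, did not pass the receptor gene mark, and its call was lost without the wall of mouse E1A (adjusted p = 0.060) or E2A (adjusted p = 0.069).

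Elastic fibre genes were divided, with 11 lower, 3 higher and 5 not past the threshold of 19 tested. With scaling by total counts alone, 5 were higher. Eln, elastin itself, had 1903, 2733 and 3762 CPM in the flushes and 1058, 2727 and 1786 CPM in the walls. The groups overlapped and the log2 fold change of 0.58 ± 0.28 did not pass (adjusted p = 0.0935), although it did with mouse as a block over the 48 h libraries (adjusted p = 0.004). Lox, which cross-links elastin, averaged 525 ± 29.0 CPM in the flushes and 531 ± 158 CPM in the walls (SD, n = 9 and 3). Fbln2 and Ltbp4, which bind elastin and latent TGF-beta, were higher by 1.88 ± 0.22 and 1.31 ± 0.18. Ltbp4 had 2195, 2588 and 2864 CPM in the flushes and 1099.6, 961 and 1015 CPM in the walls. Fbln5, which anchors elastic fibres to cells, was higher by 0.68 ± 0.28 (adjusted p = 0.0431), a call lost on leaving out any 1 of 10 of the 12 libraries, all but the flushes of mice E1A and E3B. The microfibril genes Ltbp1, Mfap4 and Fbn1 were lower, with log2 fold changes of -6.03 ± 0.33, -8.60 ± 0.77 and -2.78 ± 0.33. Mfap4 had 0, 0.178 and 14.3 CPM in the flushes and 941, 1109 and 864 CPM in the walls.

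Proteoglycans and matricellular proteins gave 20 lower and 1 higher of 27 tested. The median log2 fold change was -5.35, or -4.05 with genes at 0 in the flush placed at their bound. Ogn, osteoglycin, had 0, 6.47 and 34.2 CPM in the flushes and 1866, 2536 and 2025 CPM in the walls. Postn, which binds collagen in remodelling tissue, had 2.49, 21.1 and 36.9 CPM in the flushes and 2617, 2817 and 2114 CPM in the walls. Sparcl1 and Prelp were lower, with log2 fold changes of -8.14 ± 0.51 and -5.40 ± 0.51. Bgn, Mgp and Fn1 were abundant in both fractions and did not pass. Bgn, the proteoglycan biglycan, averaged 10326 ± 1256 CPM in the flushes and 12347 ± 905 CPM in the walls, and Mgp, an inhibitor of calcification, averaged 2005 ± 792 CPM in the flushes and 2204 ± 465 CPM in the walls (SD, n = 9 and 3). Fn1, fibronectin, averaged 2937 ± 647 CPM in the flushes and 2723 ± 278 CPM in the walls. Thbs1, an activator of TGF-beta, was higher by 2.38 ± 0.71 (adjusted p = 0.00711), but not without the wall of mouse E1A (adjusted p = 0.053).

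Of 20 basement membrane genes tested, 12 were lower and 3 higher. Npnt, nephronectin, had 4.97, 45.8 and 90.1 CPM in the flushes and 1904, 1703 and 1373 CPM in the walls. The laminin chains Lama4 and Lamc1 were lower, with log2 fold changes of -2.63 ± 0.20 and -1.23 ± 0.12. Integrins, the receptors for these proteins, gave 9 lower (52.9%) and 2 higher (11.8%) of 17, against 24.5% and 25.6% of all genes tested. The higher calls numbered 1 without any 1 of 7 libraries (flushes E1A, E1B, E2B, E3B and E3C and walls E1A and E3A) or with the 3 mice as a block. Itga8, a receptor for nephronectin, had 6.23, 22.7 and 81.5 CPM in the flushes and 5401, 6919 and 5541 CPM in the walls. Itgb4, the beta chain of hemidesmosomes, had 154, 202 and 325 CPM in the flushes and 66.0, 22.1 and 38.9 CPM in the walls, and was higher by 2.37 ± 0.28. Matrix proteases and their inhibitors gave 13 lower and 4 higher of 24, and 6 lower in the fit with the 3 mice as a block. Adamts5 and Adamts2, which cut proteoglycans and procollagen, had 0, 0 and 5.43 CPM and 0, 0 and 1.56 CPM in the flushes. In the walls they had 157, 177 and 131 CPM and 182, 227 and 202 CPM.

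**Figure D3:**
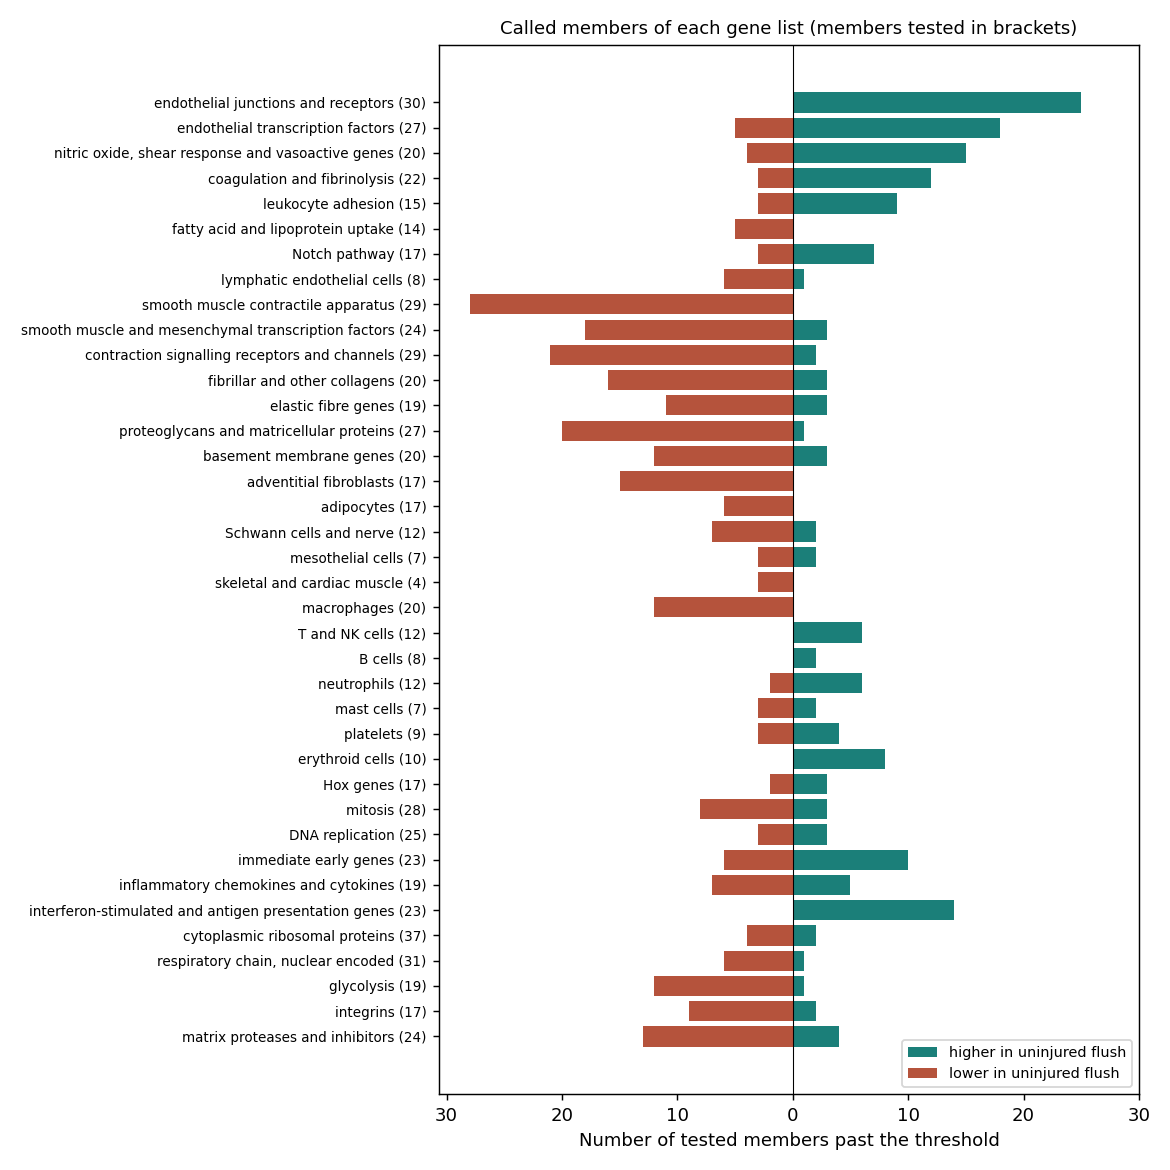
Number of tested members of each of 38 gene lists that were higher (right, teal) or lower (left, red) in the uninjured flush than in the vessel wall, with the members tested in brackets. The 5 lists at the top, all of endothelial functions, lie mostly to the right and the contractile, matrix, adventitial and macrophage lists mostly to the left.

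Markers of other wall cells were checked by the whole list. Adventitial fibroblast genes gave 15 lower and 0 higher of 17, and their summed level ran from 516 to 1269 CPM in the flushes and from 4247 to 5099 CPM in the walls. Pdgfra, the receptor that defines these cells, had 0, 0 and 4.18 CPM in the flushes and 128, 138 and 139 CPM in the walls. Gsn, gelsolin, and Dpt, dermatopontin, were lower, with log2 fold changes of -2.98 ± 0.26 and -5.10 ± 0.82. Adipocyte genes gave 6 lower and 0 higher of 17, with 1 flush standing apart. The flush of mouse E1C held 1409 CPM over the list and the other flushes 43.4 to 173 CPM, against 917 to 1234 CPM in the walls. Adipoq, Plin1 and Cidec, defining markers of fat cells, had counts in that flush alone among the 9. Without it 15 of the 17 were lower, and 13 with mouse as a block over the 48 h libraries or 10 with the 3 mice as a block. Fatty acid and lipoprotein uptake genes gave 5 lower and 0 higher of 14, and 9 lower without the same flush. With mouse as a block over the 48 h libraries 10 were lower, and 6 with the 3 mice as a block. Lpl, lipoprotein lipase, had 0, 0 and 611 CPM in the flushes and 496, 273 and 149 CPM in the walls, the highest flush value being that of mouse E1C. It did not pass with all libraries (adjusted p = 0.179) and did with mouse as a block over the 48 h libraries (adjusted p = 0.0031).

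Schwann cell and nerve genes gave 7 lower and 2 higher of 12, and 4 lower with mouse as a block over the 48 h libraries or 2 lower with the 3 mice as a block. Ncam1, a neural and muscle adhesion molecule, was abundant in both fractions, with 283, 362 and 407 CPM in the flushes and 916, 1079.6 and 1188 CPM in the walls. Sox10, a factor that defines Schwann cells, had no flush count, but averaged only 0.37 CPM in the walls and was not tested. Mesothelial genes gave 3 lower (42.9%) and 2 higher (28.6%) of 7, against 24.5% and 25.6% of all genes tested. With mouse as a block 0 were lower and 1 higher, and 1 was lower without the wall of mouse E1A or E2A. A single member was higher without any 1 of the walls or without the flush of mouse E2A, E2C, E3A or E3C. Muc16, a mucin of mesothelial and other linings, had 212, 521 and 1101 CPM in the flushes and 43.6, 25.2 and 21.6 CPM in the walls, whereas Msln, the defining mesothelial marker, had no flush count. The summed level of the mesothelial list was largest, 1106 CPM, in the flush of mouse E1A and smallest, 230 CPM, in that of mouse E3A. Those flushes had the largest and smallest receptor gene shares, and the link of Muc16 to that share was not tested. Skeletal and cardiac muscle genes gave 3 lower of 4 tested, or 1 with the 3 mice as a block. Myh6, Ckm and Acta1 had no flush count, but averaged only 0.51, 0.35 and 0.26 CPM in the walls and were not tested. Tnni3, the remaining defining marker, averaged 0.98 CPM in the flushes and 1.24 CPM in the walls and did not pass (adjusted p = 0.91). Lymphatic endothelial genes gave 6 lower and 1 higher of 8. Lyve1 had 0, 2.50 and 20.2 CPM in the flushes and 125, 99.4 and 104 CPM in the walls, while Flt4, a receptor for VEGF-C that blood endothelium also uses, was higher in the flush by 1.40 ± 0.24.

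Macrophage genes gave 12 lower and 0 higher of 20, and 8 lower with the 3 mice as a block. Their summed level ran from 237 to 452 CPM in the flushes and from 1069 to 1249 CPM in the walls. Mrc1, a scavenger receptor of resident macrophages, had 2.85, 10.3 and 26.4 CPM in the flushes and 86.7, 112 and 105 CPM in the walls. Cx3cr1, a chemokine receptor, and F13a1, factor XIII, were lower, with log2 fold changes of -4.70 ± 0.73 and -4.21 ± 0.62. Adgre1, the F4/80 antigen, had 7.47, 28.7 and 36.1 CPM in the flushes and 10.1, 14.8 and 11.96 CPM in the walls and did not pass. C1qa, a complement subunit that defines tissue macrophages, had no flush count, but averaged only 2.83 CPM in the walls and was not tested.

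Genes of circulating blood cells were mostly low in both fractions. Erythroid genes gave 8 higher and 0 lower of 10, and 5 higher with mouse as a block over the 48 h libraries or without the wall of mouse E3A. With the 3 mice as a block 2 were higher, and likewise 2 with limma voom. Their summed level ran from 138 to 606 CPM in the flushes and from 39.0 to 47.6 CPM in the walls. Hbb-bs, a beta globin with a near-identical copy, had 20.8, 33.1 and 256 CPM in the flushes and 9.33, 2.46 and 1.504 CPM in the walls. The highest value was that of mouse E1C, and the call of Hbb-bs was lost with limma voom (adjusted p = 0.103). Bpgm, which sets 2,3-bisphosphoglycerate in red cells but is not confined to them, had 67.5, 205 and 245 CPM in the flushes and 29.1, 34.3 and 38.3 CPM in the walls. Neutrophil genes gave 6 higher and 2 lower of 12, and 3 and 0 with the 3 mice as a block, or 1 and 1 with limma voom. The lower calls numbered 1 without the wall of mouse E1A and 0 without that of E2A. S100a9, a calcium-binding protein of neutrophils, had 13.2, 40.3 and 83.2 CPM in the flushes and 1.38, 1.45 and 0.301 CPM in the walls, a call lost with limma voom (adjusted p = 0.223). T and NK cell genes gave 6 higher of 12, but 0 with mouse as a block, 0 above the receptor gene mark, and 1 or 2 without any 1 of the walls. B cell genes gave 2 higher of 8 (25%), against 25.6% of all genes tested, with 0 of them above that mark. The higher B cell calls numbered 1 without the wall of mouse E2A or with mouse as a block over the 48 h libraries. With the 3 mice as a block they numbered 0. Cd79a, a subunit of the B cell receptor, had no flush count, but only 2 counts over the walls, and did not pass. Platelet genes gave 4 higher (44.4%) and 3 lower (33.3%) of 9, against 25.6% and 24.5% of all genes tested. With the 3 mice as a block 2 were higher and 2 lower. Pf4 and Itga2b were at 0 in every flush, but Itga2b averaged only 0.37 CPM in the walls and was not tested. Ppbp, a platelet chemokine and the remaining defining marker, had counts in 6 of the 9 flushes, with 0, 2.30 and 20.02 CPM there and 2.35, 3.62 and 0.977 CPM in the walls, and did not pass (adjusted p = 0.217). Mast cell genes gave 2 higher (28.6%) and 3 lower (42.9%) of 7, against 25.6% and 24.5% of all genes tested. With the 3 mice as a block 1 was higher and 0 were lower, and Tpsb2 and Kit were at 0 in every flush. Tpsb2 averaged only 1.43 CPM in the walls and was not tested.

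Ligands and receptors of 22 signalling systems were followed as pairs. Of 49 ligands or producing enzymes tested, 13 were higher and 24 lower in the flush, and of 58 receptors 22 were higher and 21 lower. Over all genes tested the shares were 25.6% higher and 24.5% lower. Edn1, endothelin, had 132, 795 and 1314 CPM in the flushes and 39.7, 181 and 129 CPM in the walls (log2 fold change 2.62 ± 0.56, adjusted p = 0.000433). Its receptor Ednra, which drives contraction, had 0, 8.34 and 27.9 CPM in the flushes and 24.99, 36.9 and 25.8 CPM in the walls and did not pass. Pdgfb, the ligand that recruits mural cells, had 0, 19.4 and 27.4 CPM in the flushes and 11.4, 5.43 and 11.1 CPM in the walls and did not pass, while its receptor Pdgfrb was lower, with a log2 fold change of -1.23 ± 0.40 (adjusted p = 0.0123, and 0.067 without the wall of mouse E3A).

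BMP ligands and receptors were split by member. Bmp4 had 959, 3040.5 and 3689 CPM in the flushes and 262, 499 and 549 CPM in the walls, and Bmp6 had 627, 1327 and 1770.0 CPM in the flushes and 197, 209 and 324 CPM in the walls. No flush overlapped the walls for either, and the log2 fold changes were 2.54 ± 0.43 and 2.34 ± 0.32. Bmp2 had no flush count and 31.6, 8.98 and 10.7 CPM in the walls, at least 148-fold lower in the flush. The endothelial receptors Acvrl1 and Eng and the shared type II receptor Bmpr2 were higher by 1.63 ± 0.24, 1.96 ± 0.19 and 0.94 ± 0.12. Of the TGF-beta members, Tgfb3 and the type I receptor Tgfbr1 were lower, with log2 fold changes of -5.06 ± 0.57 and -1.38 ± 0.13. Tgfbr2, the type II receptor, averaged 222 ± 20.6 CPM in the flushes and 233 ± 11.6 CPM in the walls (SD, n = 9 and 3).

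Of 17 Notch pathway genes tested, 7 were higher (41.2%) and 3 lower (17.6%), against 25.6% and 24.5% of all genes tested. Notch1 and Notch4, the endothelial Notch receptors, were higher by 2.36 ± 0.24 and 2.61 ± 0.25, whereas Notch3, the receptor of smooth muscle, had no flush count and 27.8, 33.5 and 27.7 CPM in the walls. That is at least 266-fold lower in the flush. The ligand Jag1 was higher by 0.91 ± 0.18, and Dll4 had 0, 3.24 and 19.7 CPM in the flushes and 3.73, 2.68 and 3.38 CPM in the walls and did not pass. Tek and Tie1, the angiopoietin receptors, were higher by 2.32 ± 0.18 and 2.61 ± 0.25. Angpt2, a ligand that can oppose Tek, had 0, 1.81 and 6.98 CPM in the flushes and 45.4, 65.7 and 60.2 CPM in the walls. Vegfa had 94.7, 125 and 208 CPM in the flushes and 53.7, 27.2 and 22.4 CPM in the walls, and averaged 25.8 ± 5.71 CPM in the wounded abdominal flush (SD, n = 9). Its coreceptor Nrp1 was higher by 1.88 ± 0.22.

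Efnb2, the ephrin of arterial endothelium, and Ephb4, its receptor known from veins, were both higher, by 2.24 ± 0.22 and 1.21 ± 0.21. Efnb2 had 962, 1781 and 2011 CPM in the flushes and 243, 356 and 418 CPM in the walls. Among semaphorins, Sema6a was higher by 2.28 ± 0.33, while Sema3d had 0, 0 and 15.3 CPM in the flushes and 178, 203 and 189 CPM in the walls. The plexins Plxna2, Plxna4 and Plxnd1 were higher by 2.56 ± 0.21, 1.34 ± 0.20 and 1.51 ± 0.22. The adrenomedullin receptor Calcrl and its partner Ramp2 were higher by 1.48 ± 0.24 and 2.30 ± 0.27, and Ramp1, the partner that makes a receptor for calcitonin gene-related peptide, had no flush count and 27.7, 23.2 and 25.04 CPM in the walls. Frizzled receptors were divided in the same way. Fzd4 and Fzd6 were higher by 1.59 ± 0.18 and 1.93 ± 0.10, Fzd1 was lower, with a log2 fold change of -2.83 ± 0.29, and Fzd2 had no flush count. S1pr1, the endothelial receptor for sphingosine-1-phosphate, had 221, 302 and 386 CPM in the flushes and 77.97, 37.6 and 33.9 CPM in the walls. Igf1 had 0, 0 and 48.6 CPM in the flushes and 187, 226 and 187 CPM in the walls, whereas Igf2 had 132, 183 and 293 CPM in the flushes and 101, 49.5 and 40.2 CPM in the walls. Rarres2, which encodes chemerin, had 0, 2.13 and 13.04 CPM in the flushes and 100.1, 103 and 107 CPM in the walls, and its receptor Cmklr1, which was higher, had 115, 182 and 411 CPM in the flushes and 128, 64.5 and 108 CPM in the walls (adjusted p = 0.0023), with overlap.

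**Figure D4:**
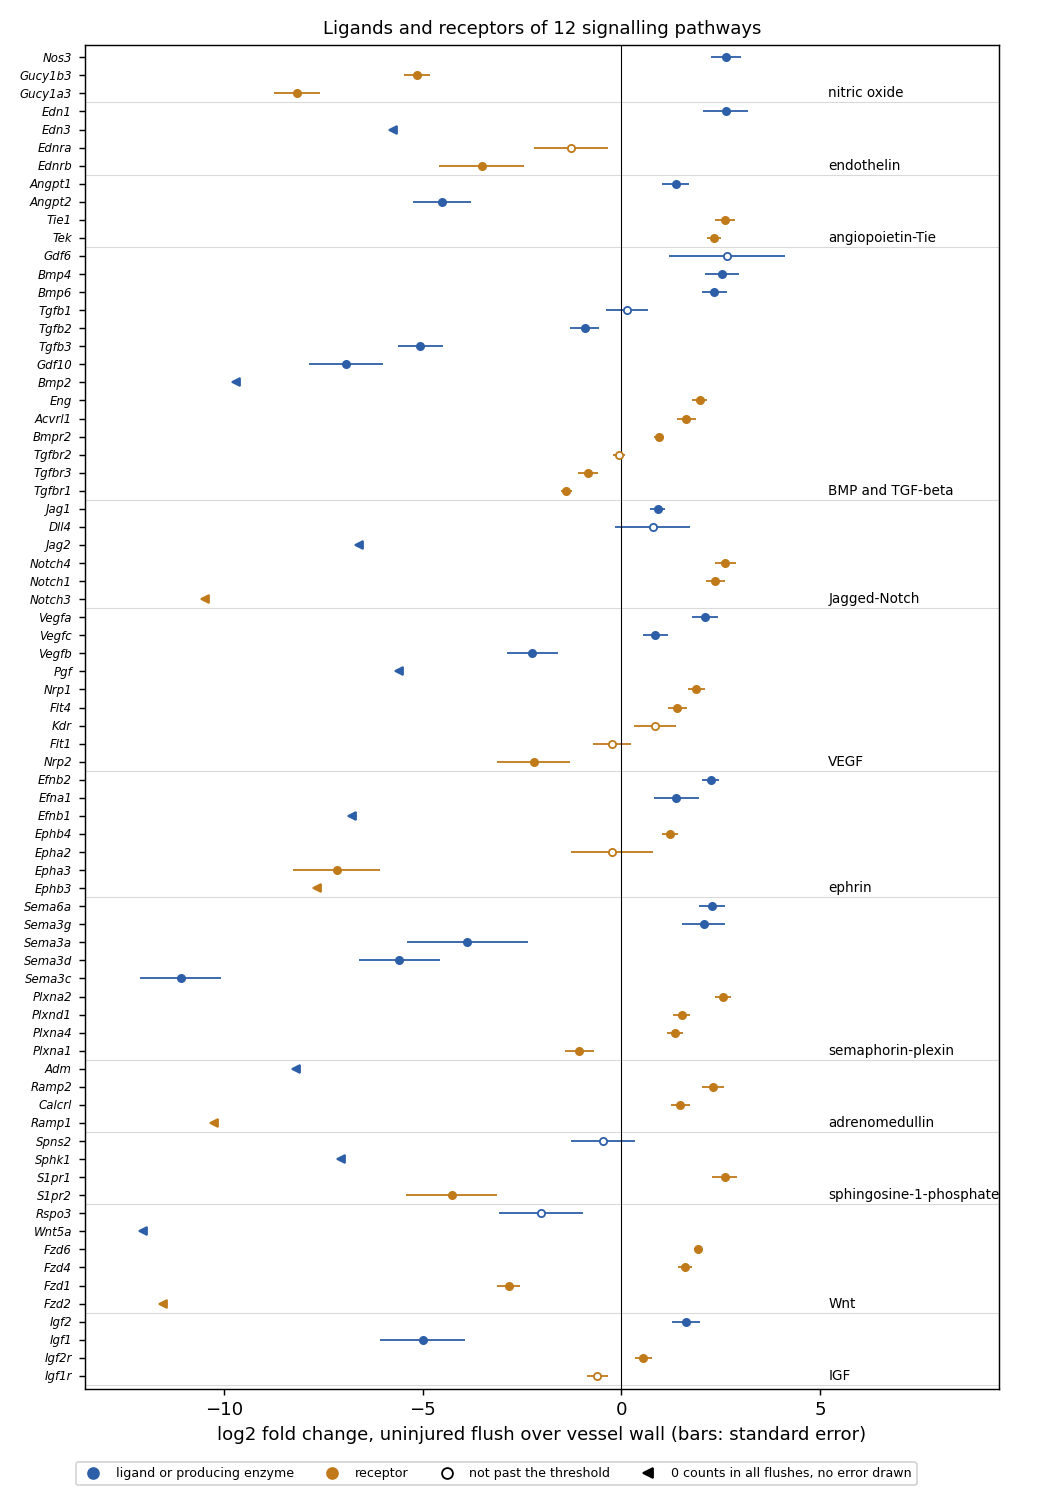
Log2 fold change of 74 ligands (blue) and receptors (orange) in 12 signalling systems, uninjured flush over vessel wall, with the standard error as a bar and open symbols where the threshold was not passed. Triangles mark genes with 0 counts in all flushes, whose fitted value is no bound. Nos3 lies to the right and the nitric oxide receptor subunits to the left, and the Notch, frizzled and BMP members lie on both sides.

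Hox genes, which keep a record of position along the body axis, gave 3 higher (17.6%) and 2 lower (11.8%) of 17 tested. Over all genes tested the shares were 25.6% and 24.5%. With the 3 mice as a block 0 Hox genes were higher and 1 was lower. The lower calls numbered 1 without any 1 of the walls and 4 without the flush of mouse E3A. Hoxc10, a gene of posterior identity, had no flush count and 13.9, 14.3 and 16.4 CPM in the walls, at least 133-fold lower in the flush, and averaged 3.13 ± 8.79 CPM in the wounded abdominal flush (SD, n = 9). Hoxd8 had 11.7, 19.5 and 37.0 CPM in the flushes and 5.60, 3.11 and 4.29 CPM in the walls, a log2 fold change of 2.25 ± 0.31 (adjusted p = 1.32e-06, and 0.056 with the 3 mice as a block). It averaged 47.5 ± 8.30 CPM in the wounded abdominal flush. Hoxb6 was higher by 1.24 ± 0.31 (adjusted p = 0.00169, and 0.12 with that block). Hoxa9 was higher, a call lost with that block (adjusted p = 0.18) or without the wall of mouse E1A or E2A. Hoxb2 was lower, a call lost with mouse as a block over the 48 h libraries (adjusted p = 0.071) or without any 1 of the walls.

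Genes of cell division and of acute responses were counted by list. Mitosis genes gave 3 higher (10.7%) and 8 lower (28.6%) of 28, against 25.6% and 24.5% of all genes tested. With the 3 mice as a block 1 mitosis gene was higher and 1 lower, and with limma voom 1 and 5. Their summed level was low in both fractions, with 66.5 to 176 CPM in the flushes and 155 to 207 CPM in the walls, against 1527 to 3447 CPM in the wounded abdominal flush. Anln, anillin, a protein of the cleavage furrow, had 0, 4.16 and 14.7 CPM in the flushes and 128, 142 and 103 CPM in the walls. Mki67, a marker of cycling cells, had 16.5, 37.9 and 61.8 CPM in the flushes and 8.28, 6.01 and 3.91 CPM in the walls. It did not pass the receptor gene mark, and 0 of the 3 higher mitosis genes stood above it. DNA replication genes gave 3 higher and 3 lower of 25 (12% each), against 25.6% and 24.5% of all genes tested, with 0 of the higher genes above that mark. The lower calls numbered 5 without the flush of mouse E1C or E3A, 8 without that of E2C, and 5 with mouse as a block over the 48 h libraries. With the 3 mice as a block 1 was higher and 0 were lower, and with limma voom 5 and 5.

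Immediate early genes, which respond within minutes to stimulation or handling, gave 10 higher (43.5%) and 6 lower (26.1%) of 23. Over all genes tested the shares were 25.6% and 24.5%. Jun had 359, 448 and 575 CPM in the flushes and 98.1, 153 and 158 CPM in the walls, and Zfp36, which destabilises cytokine messages, was higher by 1.77 ± 0.29. Cyr61, a matricellular target of mechanical signalling, had 378, 1366 and 1949 CPM in the flushes and 165, 361 and 373 CPM in the walls. Of the 23 genes, 6 were higher without the wall of mouse E1A or E3A, 1 was lower without the wall of E1A, and 0 were lower with the 3 mice as a block. Chemokine and cytokine genes gave 5 higher (26.3%) and 7 lower (36.8%) of 19, against 25.6% and 24.5% of all genes tested, with 3 lower with the 3 mice as a block, 3 higher without the wall of mouse E2A or E3A and 4 lower without that of E1A. Cxcl1, a chemokine for neutrophils, had 10.2, 28.3 and 68.5 CPM in the flushes and 2.68, 5.29 and 3.53 CPM in the walls, and Ccl9 had 0, 0 and 14.9 CPM in the flushes and 90.1, 53.5 and 35.2 CPM in the walls. Interferon-stimulated and antigen presentation genes gave 14 higher and 0 lower of 23, and 7 higher with the 3 mice as a block. H2-D1, a class I histocompatibility gene with close relatives, had 778, 980.2 and 1349 CPM in the flushes and 308, 229.9 and 248 CPM in the walls. Oasl2 and Psmb8, an interferon-induced protein and a subunit of the immunoproteasome, were higher by 2.04 ± 0.29 and 1.89 ± 0.22.

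Of the housekeeping lists, ribosomal protein and respiratory chain genes lay nearer to no difference, and glycolysis genes did not. Cytoplasmic ribosomal protein genes gave 2 higher and 4 lower of 37 and a median log2 fold change of -0.12, which was 0.06 with scaling by total counts alone. With the 3 mice as a block 0 were higher and 0 lower. Nuclear genes of the respiratory chain gave 1 higher and 6 lower of 31, 2 lower with the 3 mice as a block or with scaling by total counts alone, 15 lower with limma voom, 11 lower without the flush of mouse E1C, and 3 lower without the wall of E1A or E2A. The higher calls numbered 0 without either of those walls and 2 without the flush of mouse E2A or E2C. Glycolysis genes gave 12 lower and 1 higher of 19, with a median log2 fold change of -1.82, and 5 lower with the 3 mice as a block. Pfkp, a phosphofructokinase, had 7.91, 30.7 and 58.8 CPM in the flushes and 127, 161 and 135 CPM in the walls. Pfkfb3, which activates phosphofructokinase and is known in endothelial sprouting, was the higher member, with 110.2, 204 and 249 CPM in the flushes and 92.4, 63.7 and 88.1 CPM in the walls (log2 fold change 1.27 ± 0.21, adjusted p = 2e-05).

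The 10 largest rises among abundant genes were of another kind. They were Acsm2, Lrrc37a, Usp29, Slamf1, Ppp1r1c, Muc4, Rxfp1, Xirp2, Ndst4 and Smok2b, several of them best known from kidney, brain, testis, lymphocytes, epithelia or striated muscle. Muc4, a membrane mucin, had 238, 819 and 1335 CPM in the flushes and 5.27, 4.20 and 2.33 CPM in the walls. Xirp2, an actin-binding protein of striated muscle, had 55.6, 126 and 260.3 CPM in the flushes and 0.893, 0.580 and 0 CPM in the walls. Acsm2 had no wall count and was at least 1049.9-fold higher in the flush. The summed level of the 10 genes ran from 552 to 2897 CPM in the flushes, with a median of 1772 CPM. The flush with the smallest receptor gene share, that of mouse E3A, also had the smallest sum, and the flush with the largest share, that of mouse E1A, the largest sum. In the injured 48 h flushes Muc4 averaged 191 ± 131 CPM (SD, n = 9), where the median receptor gene share was 0.0550%. All 10 stood above the receptor gene mark, which therefore does not set them apart from the other higher genes that pass it. The 10 genes were chosen by their size in this contrast. Without the flushes of mice E1A and E1B their log2 fold changes ran from 7.39 to 12.01, as a description with no test.

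**Figure D5:**
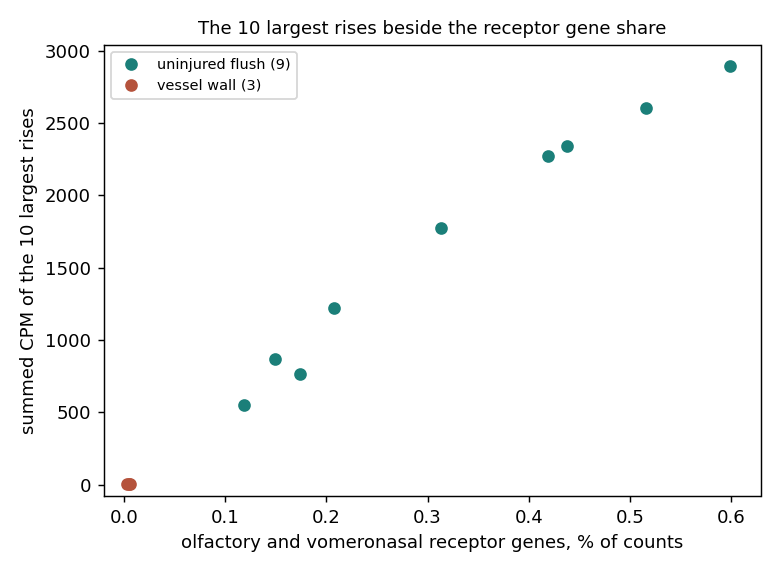
Summed CPM of the 10 largest rises (vertical axis) against the percent of counts on olfactory and vomeronasal receptor genes (horizontal axis) in 9 uninjured flushes (teal) and 3 vessel walls (red). The flushes spread from 0.118% and 552 CPM to 0.599% and 2897 CPM, and the walls sit near 0 on both axes.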

How the data were processed

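RNA sequencing counts of 26 libraries (9 uninjured flushes, 3 vessel walls, and 14 other flushes, which enter the same fit and the filter on low counts) were analysed. Per the submitters' processing notes the tools were HISAT2 2.0.3, HTSeq and DESeq2 1.14.1, with build GRCm38. The deposited values are whole-number counts per gene, not normalized by the authors, and the authors' deposited table adds log2 fold changes and adjusted p-values.

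Here edgeR 4.0.16 (R 4.3.3) scaled the counts by the trimmed mean of M values, kept 13884 of 21119 genes by expression, and ran the quasi-likelihood test with Benjamini-Hochberg adjustment and no covariate. The labels tie each wall to a flush of the same mouse. Deviations from group means correlated at 0.11, 0.0395 and 0.16 for the same mouse, and from -0.1 to 0.037 for different mice. Alternatives changed scaling, filter, test, block, batch and libraries, with limma 3.58.1 and DESeq2 1.42.0. Intervals and bounds cover counting error only.

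The members and lists were chosen with earlier results of these data known. Genes were named by rule: the 10 largest differences each way among genes of at least 20 CPM without overlap, the 5 smallest p per list, ligand and receptor pairs, defining markers and Hox genes. The others named were chosen after their values were seen: Eln, Lox, Mgp, Bgn, Fn1, Thbs1, Fbln5, Ltbp4, Twist1, Meis2, Col4a3, Col5a2, Col28a1, Col3a1, Klf2, Klf4, Nr2f2, Ets2, Gja1, Sox18, Selp, Emcn, Ldb3, Myl9, Cdh13, Tspan18, Htr2b, Ryr3, Thbd, Procr and Lpl. A few genes of the lists are not reported here by name.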

Additional observations from a re-analysis of the deposited data

Results flagged for a closer look

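Among 189 sets of 9 flush values examined (146 genes, 38 lists and 5 library properties), 16 had a highest flush set apart from the rest by more than Dixon's 95% critical value. Chance flags about 1 in 20 such sets, and the values share libraries. The flush of mouse E1C was the highest for fatty acid and lipoprotein uptake genes (1343 CPM), adipocyte genes (1409 CPM), erythroid genes (606 CPM), respiratory chain genes (3450.4 CPM) and integrins (4134 CPM), as well as for Ephb4 (133 CPM), Hbb-bs (256 CPM), Ogn (34.2 CPM) and Sox7 (263 CPM). The flush of mouse E2A was the highest for the smooth muscle contractile list (4812 CPM) and the coagulation list (8128 CPM), and for Acta2 (935 CPM), Csrp1 (282 CPM) and Fbn1 (156 CPM). The flush of mouse E1B led the interferon and antigen presentation list (9819 CPM), and that of mouse E2C led Egfl7 (382 CPM). Contractile and adipocyte genes thus stood highest in 2 different flushes, and their part in other results was not tested beyond leaving out each library.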

How the results depend on the processing

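No gene called higher or lower was called in the opposite direction under any of the alternatives run. The counts of higher and lower genes were 1504 and 1220 with mouse as a block over the 6 libraries of the 3 mice, and 2200 and 2427 for those libraries without the block. They were 1269 and 1138, 1243 and 1146, and 1374 and 1093 within the 3 experimental batches, each with 1 wall, whose spread is taken from the other groups. limma voom gave 3841 and 5416. Leaving out each library in turn gave 2789 to 3523 higher and 2806 to 3837 lower genes. Restricted to genes above the receptor gene level, a choice made after seeing the data, 2200 higher and 2153 lower calls remained. The 10 largest rises were among the 2200. With mouse as a block over the 21 libraries at 48 h the counts were 2835 and 3071. Under both blocks the call of Msln was lost (adjusted p = 0.138 with 6 libraries) and Adipoq, Cidec and Plin1 were lower (adjusted p = 0.018, 0.025 and 0.020). The same 6 libraries without the block kept the call of Msln (adjusted p = 0.0064). Adipoq and Cidec were lower there too (adjusted p = 0.0023 and 0.0040), and likewise when only the flush of mouse E1C was left out (adjusted p = 1.07e-05 and 3.66e-05). The 6-library block also ended the calls of Kit and Pf4. Col28a1 and Cd79a fell under the filter on low counts in the 6-library fits, with or without the block. Cd79a did so with the 21-library block as well. With no filter 3415 genes were higher and 4733 lower, so 41.9% of calls were higher, against 51.0% with the filter. The cause of these shifts was not tested. Shallow flush libraries limit the lowest genes, and with 3 walls single libraries decide calls such as those of Thbs1 and Pdgfrb.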
